A study of Mus musculus with 8 samples.

Results

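The insulin, AKT and mTOR signalling genes described here are 33 genes listed by symbol, from the insulin receptor to the substrates of mTOR, of 30153 genes in the table. All 33 were found, and 32 reached 1 TPM (a transcript's share of all transcripts, scaled to a common total) in at least 4 of the 8 heart libraries and were tested. Each library measured heart tissue of mice on a C57/BL6 background, which the series title describes as overexpressing a human angiotensin type 1 receptor. The 4 control libraries carry the label of aged mice with haplotype II, and the other 4 that of such mice given a western diet, usually a feed rich in fat and sugar. Both groups therefore share the haplotype and the age, and neither a mouse without the transgene nor a young mouse was analysed here. The labels give no promoter for the transgene, no sex, exact age, length of feeding, fasting state or hour of collection. Whether every library is its own animal is not stated, and p-values then cover only the spread between these samples, which may be technical.

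Insulin binds a receptor tyrosine kinase that phosphorylates the adaptors IRS1 and IRS2, which recruit PI3-kinase and lead, through PDK1 and mTORC2, to activation of AKT. AKT in turn restrains GSK3, the FOXO transcription factors and the Rab regulators TBC1D1 and TBC1D4, and releases mTORC1 by inhibiting the TSC complex. In the heart this pathway is known for glucose uptake, protein synthesis and cell growth, and most of its regulation is by phosphorylation, which RNA levels do not show.

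None of the 32 tested members passed a limma adjusted p of 0.05, which 0.301% of the 10969 genes tested did, and the smallest adjusted p among members was 0.23, for Socs3. At an unadjusted p under 0.05 there were 3 members, Socs3, Irs2 and Pik3r1, all with the higher mean after western diet. That is 9.38% of the members, against 11.7% of all genes tested in either direction and 9.20% in the higher direction. Socs3 was the 1 member whose groups did not overlap, 3.12% of the members against 6.60% of all genes, or 4.85% with western diet the higher. The median log2 fold change was 0.11 over the members and 0.06 over all genes, and its median size regardless of sign 0.13 and 0.11. Of the members, 27 of 32 (84.4%) had the higher mean log2 value with western diet, as did 66.4% of all genes. The split of 27 higher and 5 lower became 21 and 11 after median-of-ratios scaling and 18 and 14 after quantile normalization. In bulk tissue, fewer cells of a type and less RNA per cell cannot be told apart.

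The count of 3 moved with single libraries. It was 1 without control replicate 1, control replicate 2, western diet replicate 1 or western diet replicate 2. In those fits 8.26%, 7.92%, 10.2% and 7.78% of all genes had an unadjusted p under 0.05. The count of members was 10 without western diet replicate 4. With that last library left out 16.4% of all genes had an unadjusted p under 0.05, and again no member passed an adjusted p of 0.05. Over all genes 33 passed, 25 higher and 8 lower. The split was 31 and 18 after median-of-ratios scaling and 40 and 21 after quantile normalization. The number was 15, 9, 12 and 14 without control replicates 1 to 4 and 90 without western diet replicate 4.

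The precision of these differences varied by gene. For 23 of the 32 members (71.9%) the 95% interval lay within a 1.5-fold change in TPM + 1 either way, and for 30 (93.8%) within a 2-fold change, against 84.0% and 96.5% of all genes. The exceptions to the wider limit were Irs2 and Tbc1d1. On this scale changes of genes near 1 TPM are understated.

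**Figure D1:**
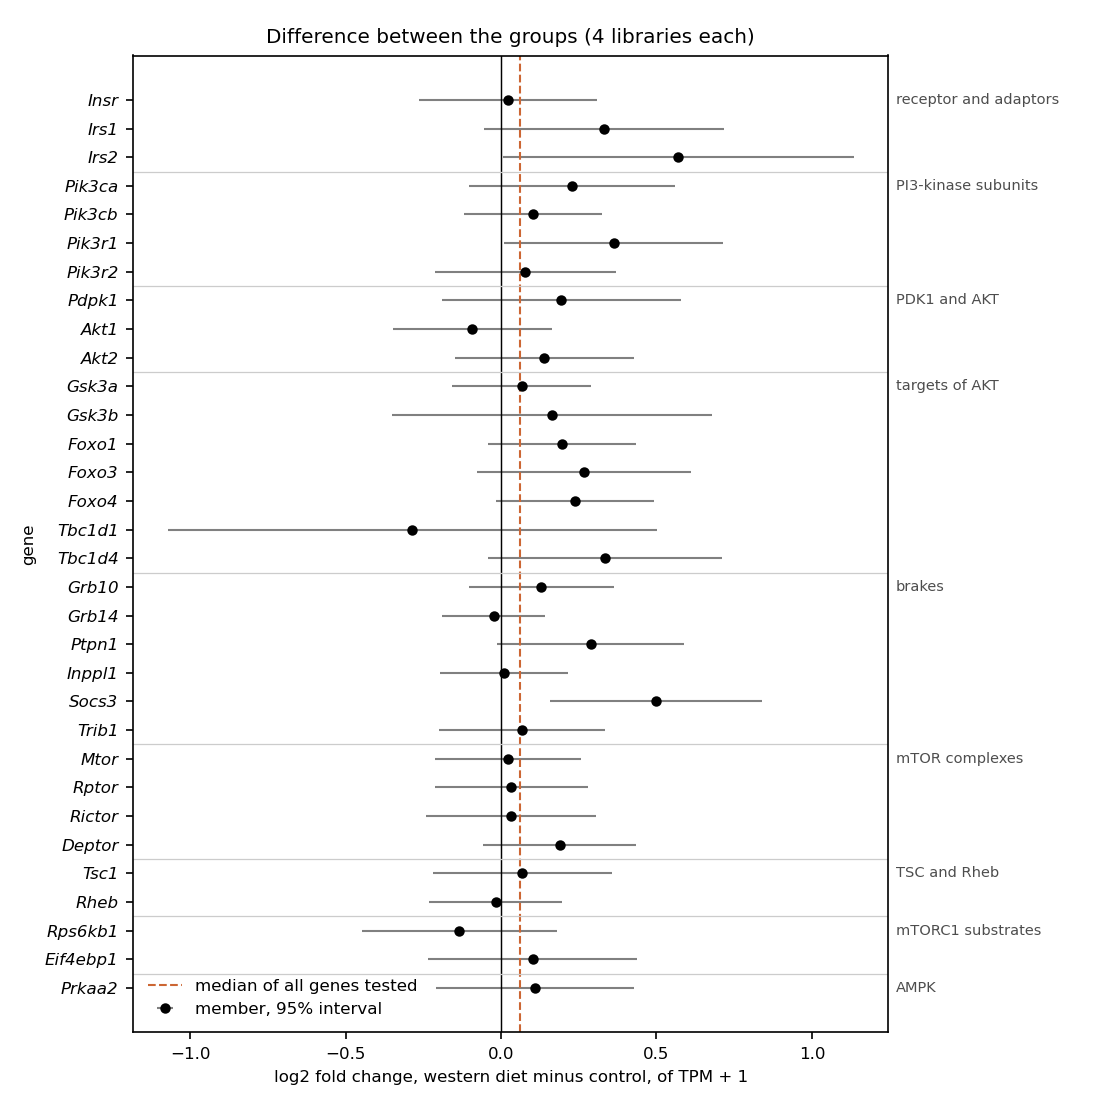
Log2 fold change of TPM + 1, western diet minus control, on the x axis for each of the 32 tested members, ordered by role, with its 95% interval from limma (4 libraries a group); the dashed line is the median of all genes tested. The intervals of Socs3, Irs2 and Pik3r1 lie above 0 and all others include it.

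Western diet replicates 1, 2 and 3 lack Y-linked transcripts. The Y chromosome gene Eif2s3y did not exceed 0.0231 TPM there, while the remaining 5 libraries held 21.1 to 29.0 TPM. With a model term for those transcripts the diet estimate rests on western diet replicate 4. The members' median log2 fold change was then -0.06, beside -0.07 over all genes, with 13 of 32 members higher. No member had an unadjusted p under 0.05 in that fit, and 8.32% of all genes did. For the other 3 western diet libraries, the lack of Y-linked transcripts and the diet cannot be told apart. Atrial transcripts marked 3 libraries: the atrial myosin gene Myl7 reached 1403 TPM in the third control, 335 TPM in the second western diet library and 184 TPM in the first control, and no more than 2.87 TPM elsewhere. Without these 3 libraries 1 member, Socs3, had an unadjusted p under 0.05, as did 5.48% of all genes.

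The tissue label was checked on marker genes. The sum of 7 cardiomyocyte markers was 34980 to 38100 TPM in control and 27160 to 36910 TPM with western diet, and 6 of the 7 had the lower mean with western diet. The means of all 6 macrophage markers were higher in the western diet group, where they summed to 156.2 to 252.2 TPM, against 151.8 to 186.1 TPM in control. Of 6 adipocyte markers only Fabp4, which endothelium also expresses, was high enough to be tested. The sum of 4 kidney markers was 0 to 0.685 TPM in control and 9.02 to 79.0 TPM with western diet. Only 1 of the 4, Kap, was tested, and it passed a limma adjusted p of 0.05. Kap reached 1 TPM in the western diet libraries alone, so it met the filter only through the group where it was high. Kap was highest, at 72.1 TPM, in western diet replicate 4, on which the estimate with the Y-linked term rests. The sum of 3 red cell markers ran from 1301 to 9056 TPM with western diet, the highest in replicate 1, and from 1598 to 2963 TPM in control. Sums of 6 endothelial markers were 184.3 to 215.2 TPM in control and 204.6 to 240.1 TPM with western diet, and 4 of the 6 had the higher mean there. Those of 6 smooth muscle and pericyte markers were 181 to 213.5 TPM and 202.4 to 276.2 TPM, but only 2 of the 6 had the higher mean with western diet. Acta2 was at 26.28 to 39.15 TPM in control and 47.92 to 117.3 TPM with western diet. Tagln, among those with the lower mean, was at 16.18 to 21.07 TPM and 7.925 to 10.93 TPM. In the endothelial list and in the smooth muscle and pericyte list 1 marker each passed a limma adjusted p of 0.05. The part of these shifts in the values below was not tested.

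The receptor and its adaptors were unequal in level, and the adaptors were the less abundant. Insr, the insulin receptor, was at 13.5, 11.7, 16.7 and 15.9 TPM in control replicates 1 to 4 and at 14.1, 17.0, 15.4 and 12.2 TPM in western diet replicates 1 to 4. The groups covered the same range, with a ratio of means of 1.014 (95% interval 0.832 to 1.24 in TPM + 1; limma adjusted p = 0.968). Irs2 (ENSMUSG00000038894, chromosome 8, 10984681 to 11008458 in GENCODE vM21 on GRCm38), the adaptor that FOXO factors are known to induce in liver, was at 1.29, 1.53, 1.60 and 1.38 TPM in control. With western diet it was at 3.99 and 4.51 TPM in replicates 1 and 2, above all controls, but at 1.11 TPM in replicate 3, below all controls, and at 2.01 TPM in replicate 4. Its means were 2.90 ± 1.61 against 1.45 ± 0.140 TPM (SD, n = 4 per group), with a log2 fold change of 0.57 (SE 0.26, unadjusted p = 0.0481, limma adjusted p = 0.422). The SD of the western diet group was thus far wider than that of control. The unadjusted p of Irs2 was under 0.05 in 5 of the 19 alternative settings that tested it. It was not with a pseudocount of 0.5 or 0.1. With a model term for Y-linked transcripts the log2 fold change of Irs2 was 0.30 (SE 0.41). Irs1, its partner adaptor, was at 1.58, 1.22, 2.33 and 2.47 TPM in control and at 3.01, 3.13, 2.66 and 1.74 TPM with western diet. Here 3 western diet libraries lay above all controls and replicate 4 among them (limma adjusted p = 0.496). Irs1 exceeded Irs2 in 4 of the 8 libraries, so their order was not fixed.

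Sequences just upstream of RefSeq start sites of Irs1 and Irs2 are shown because both hold the same E-box letters beside a core of the insulin response element. That of Socs3 is shown because its groups did not overlap. They come from RefSeq on GRCm38.p6, which gave promoters of 300 bases (250 before and 50 after a start site) for 28 of the 33 members, 37 in all. Each run is 5′ to 3′ on the gene's strand and ends before the start site, with the E-box CACGTG or the STAT letters TTCNNNGAA in capitals. The Irs1 stretch is chr1:82291519-82291584, the Irs2 stretch chr8:11008938-11009003 and the Socs3 stretch chr11:117969482-117969550, all on the minus strand. GENCODE places some start sites differently from RefSeq. The Socs3 stretch lies inside the GENCODE span of that gene, which ends at 117970047. The Irs2 stretch lies upstream of the GENCODE end of Irs2 at 11008458, and not next to it.
Irs1: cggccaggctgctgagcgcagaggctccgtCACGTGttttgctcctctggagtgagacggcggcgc
Irs2: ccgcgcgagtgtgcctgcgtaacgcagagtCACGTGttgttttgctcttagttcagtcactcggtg
Socs3: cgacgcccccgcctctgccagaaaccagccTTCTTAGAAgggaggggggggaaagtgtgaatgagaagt

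In both adaptors the E-box is followed by TGTTTTG, the reverse complement of CAAAACA, which in Irs1 shares letters with the E-box. On both strands, CACGTG was in 7.15% of all 32851 promoters and in 8.11% of the members' promoters, those of Irs1, Irs2 and Rheb. CAAAACA was in 6.28% of all promoters and 5.41% of the members', and GTAAACA, a forkhead core, in 3.65% and 2.70%. TTCNNNGAA was in 8.30% and 10.8%, and the members with it were Akt2, Mtor, Pdpk1 and Socs3. A match describes letters and no binding was measured.

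PI3-kinase makes the lipid signal that recruits AKT, and its regulatory subunit p85 alpha, encoded by Pik3r1, was the most abundant of the 4 subunits. Pik3r1 (ENSMUSG00000041417, chromosome 13, 101680563 to 101768217) was at 13.6, 11.7, 16.9 and 15.3 TPM in control and at 22.3, 22.2, 17.5 and 13.7 TPM with western diet. Western diet replicates 1, 2 and 3 lay above all controls, and replicate 4 lay among them. The means were 18.9 ± 4.16 against 14.4 ± 2.23 TPM (n = 4 per group, SD). The log2 fold change was 0.36 (SE 0.16, unadjusted p = 0.0447, limma adjusted p = 0.417). With the Y-linked term the estimate was -0.055 (SE 0.20). The catalytic subunit p110 alpha, Pik3ca, was at 12.4 ± 1.32 against 10.6 ± 2.65 TPM and p110 beta, Pik3cb, at 3.31 ± 0.189 against 3.02 ± 0.310 TPM (limma adjusted p = 0.604 and 0.741). Pik3r2, the other regulatory subunit among the members, averaged 3.78 ± 0.846 TPM with western diet and 3.47 ± 0.201 TPM in control (limma adjusted p = 0.868). Within a library, Pik3r1 was 1.06 times the sum of Pik3ca and Pik3cb in control and 1.19 times with western diet (geometric means; exact permutation p = 0.4, adjusted p = 0.914 over 10 such ratios).

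AKT transcripts were abundant in both forms. Akt1 was at 75.8, 62.6, 83.1 and 82.1 TPM in control and at 67.2, 84.0, 70.4 and 62.7 TPM with western diet (ratio of means 0.937, 95% interval 0.785 to 1.12 in TPM + 1; limma adjusted p = 0.81). Akt2, the form tied most closely to insulin-driven glucose uptake, was at 63.2, 58.9, 66.5 and 68.4 TPM in control and at 88.0, 78.9, 64.5 and 55.9 TPM with western diet (limma adjusted p = 0.73). Both groups of each gene overlapped, but western diet replicates 1 and 2 exceeded all controls for Akt2 and only replicate 2 did for Akt1. Akt1 exceeded Akt2 in 7 of the 8 libraries, the exception being western diet replicate 1. The ratio of Akt1 to Akt2 was 1.18 in control and 0.999 with western diet, a log2 difference of -0.23 (two-sided exact permutation p = 0.114, adjusted p = 0.914), where 70 assignments allow no p below 0.0286. This p was the smallest of the 10 ratios. Pdpk1, which encodes the AKT-activating kinase PDK1, averaged 6.66 ± 1.54 TPM with western diet and 5.72 ± 1.41 TPM in control (limma adjusted p = 0.715).

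**Figure D2:**
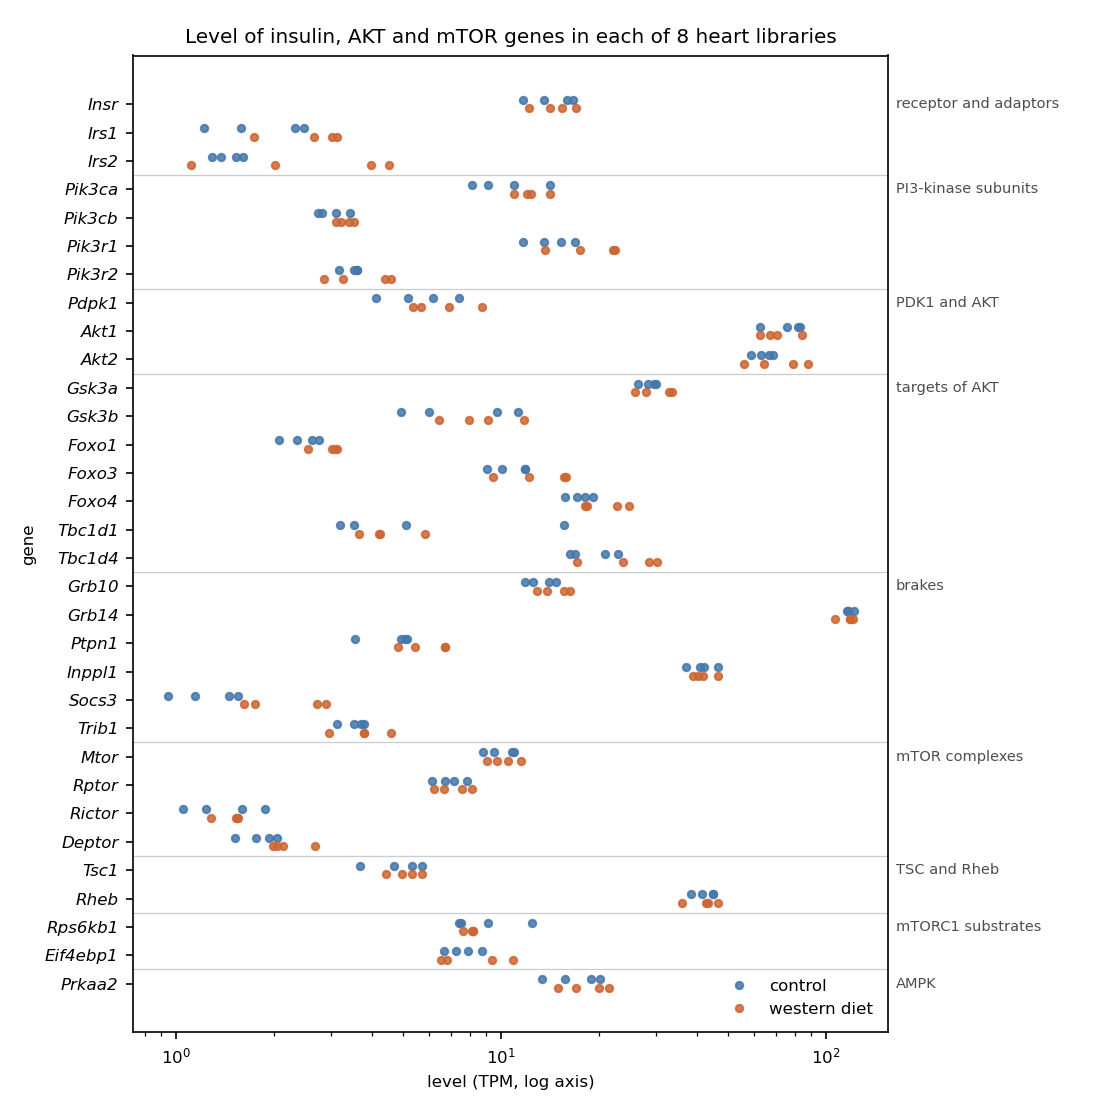
Level in TPM on a log x axis of each tested member (rows, by role) in the 4 control and 4 western diet libraries; each point is a library. Grb14, Akt1 and Akt2 have the highest levels, the points of Tbc1d1 include 1 control library at 15.6 TPM, and the groups overlap for all members but Socs3.

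Among the targets of AKT, 6 of 7 had the higher mean with western diet and none had an unadjusted p under 0.05. Gsk3a, one of the 2 forms of the glycogen synthase kinase, was the most abundant at 28.3, 26.4, 29.5 and 29.98 TPM in control and 33.7, 32.9, 25.8 and 27.9 TPM with western diet. The western diet libraries lay on both sides of the controls (limma adjusted p = 0.852). Gsk3a exceeded Gsk3b in all 8 libraries, by 3.78 times in control and 3.47 times with western diet. The FOXO factors, which turn on genes of fasting and atrophy when AKT is inactive, differed in level in the order Foxo4, Foxo3 and Foxo1. Foxo4, on the X chromosome, was at 17.1, 15.7, 19.2 and 18.1 TPM in control and 22.7, 24.7, 18.1 and 18.4 TPM with western diet (log2 fold change 0.24, SE 0.12, limma adjusted p = 0.46). Again replicates 1 and 2 lay above all controls while replicates 3 and 4 did not. Foxo3 was at 13.3 ± 3.05 against 10.7 ± 1.39 TPM and Foxo1 at 2.94 ± 0.267 against 2.45 ± 0.299 TPM (limma adjusted p = 0.553 and 0.515). Foxo1 relative to Foxo3 was 0.228 in control and 0.226 with western diet.

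Tbc1d4, also called AS160, and Tbc1d1 hold glucose transporter vesicles back until AKT or AMPK phosphorylates them. Tbc1d4 was at 16.9, 16.3, 22.9 and 20.9 TPM in control and 30.2, 28.5, 23.7 and 17.1 TPM with western diet (log2 fold change 0.33, SE 0.17, limma adjusted p = 0.484). Of its 4 western diet libraries 3 lay above all controls, and replicate 4 lay at the low end of them. Tbc1d1 had the widest spread of any tested member, with a coefficient of variation of 72.4% over the 8 libraries. It was at 5.10, 3.19, 15.6 and 3.52 TPM in control and at 3.65, 5.84, 4.23 and 4.24 TPM with western diet. The high value was in control replicate 3, the library with the most Myl7, where 5 of the 6 adipocyte markers were highest too, among them Adipoq (5.61 TPM, at most 0.398 TPM elsewhere) and Cfd (11.1 TPM, at most 2.38 TPM elsewhere). The sixth and most abundant, Fabp4, was not, at 481 TPM there and 471 to 616 TPM elsewhere. Of 3 brown adipocyte markers Ucp1 was highest there (10.9 TPM, at most 1.68 TPM elsewhere), Cidea was at 31.5 TPM and 23.2 to 32.4 TPM elsewhere, and Elovl3 was at 0. The part of these cells in the Tbc1d1 value was not tested. The log2 fold change of Tbc1d1 was -0.29 (SE 0.36, limma adjusted p = 0.809), and 0.16 (SE 0.17) without that library.

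The brakes on the receptor held both the most abundant and one of the scarcest members. Grb14 (ENSMUSG00000026888, chromosome 2, 64912476 to 65024987), an adaptor that binds the activated insulin receptor and blocks its kinase, had the highest mean of all members, 117 TPM over the 8 libraries. It was at 116, 122, 117 and 117 TPM in control and at 118, 121, 119 and 106 TPM with western diet. This was the steadiest of the 32 tested transcripts, with a coefficient of variation of 4.06%, and its ratio of means was 0.984 (95% interval 0.877 to 1.10 in TPM + 1; limma adjusted p = 0.936). Its relative Grb10 was at 14.7 ± 1.59 against 13.3 ± 1.34 TPM, near the level of the receptor. Together Grb10 and Grb14 were 9.17 times Insr in control and 8.97 times with western diet (exact permutation p = 0.857, adjusted p = 0.914).

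Socs3 (ENSMUSG00000053113, chromosome 11, 117966079 to 117970047), a cytokine-induced inhibitor that binds the insulin receptor and its adaptors, was at 1.55, 1.14, 1.46 and 0.941 TPM in control and at 2.89, 2.72, 1.75 and 1.62 TPM with western diet. All 4 western diet libraries lay above all 4 controls, though replicates 3 and 4 only narrowly. Its means were 2.24 ± 0.653 against 1.27 ± 0.281 TPM, a ratio of 1.76 (log2 fold change 0.50, SE 0.16, unadjusted p = 0.00833, limma adjusted p = 0.23). Its unadjusted p was under 0.05 in 17 of the 19 alternative settings that tested it, and its adjusted p ranged from 0.112 to 0.89 over them. The other 2 were the term for Y-linked transcripts (log2 fold change 0.21, SE 0.23) and the 5 libraries with those transcripts alone.

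The other brakes did not reach an unadjusted p of 0.05. Ptpn1, which encodes the phosphatase PTP1B that dephosphorylates the receptor, was at 4.93, 3.55, 5.05 and 5.15 TPM in control and at 6.73, 6.72, 5.43 and 4.83 TPM with western diet (unadjusted p = 0.0582, limma adjusted p = 0.443). Replicate 4 was the 1 western diet library within the control range. Inppl1, which encodes the lipid phosphatase SHIP2, was at 42.0 ± 3.28 against 41.7 ± 3.88 TPM, a ratio of 1.006 (95% interval 0.873 to 1.16 in TPM + 1; limma adjusted p = 0.98). Trib1, a pseudokinase of the Tribbles family, averaged 3.78 ± 0.663 TPM with western diet and 3.54 ± 0.2995 TPM in control (limma adjusted p = 0.882).

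In the mTOR branch no member had an unadjusted p under 0.05. For its 8 tested members, and for AMPK, the 95% interval lay within a 1.5-fold change. Mtor, the kinase of both complexes, was at 10.9, 8.80, 9.54 and 10.8 TPM in control and 9.03, 11.5, 9.73 and 10.5 TPM with western diet. The ranges coincided almost fully, with a ratio of means of 1.02 (95% interval 0.862 to 1.19 in TPM + 1; limma adjusted p = 0.963). Rptor, which defines mTORC1, was at 7.15 ± 0.872 against 6.96 ± 0.724 TPM, and Rictor, which defines mTORC2, at 1.48 ± 0.133 against 1.44 ± 0.373 TPM. Rptor was 4.93 times Rictor in control and 4.83 times with western diet. Deptor, an inhibitor of both complexes, was at 2.21 ± 0.314 against 1.81 ± 0.228 TPM (limma adjusted p = 0.555).

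Upstream of mTORC1, Rheb, the small GTPase that activates it, was abundant at 38.5, 41.5, 44.98 and 44.9 TPM in control and 46.3, 42.6, 43.3 and 36.0 TPM with western diet. The highest and the lowest value both fell in the western diet group (ratio of means 0.990; limma adjusted p = 0.967). Tsc1, part of the complex that switches Rheb off, was at 5.11 ± 0.549 against 4.86 ± 0.895 TPM (limma adjusted p = 0.886). Tsc2, its partner, overlaps Pkd1 on the opposite strand. Members that were tested, Mtor and Inppl1 among them, also overlap genes on the opposite strand. Tsc2 was listed near 0. Whether this reflects absent RNA or how the deposited values were made was not tested. Tsc2 was at 0.175 TPM in control replicate 4 and at 0.000731 TPM in western diet replicate 1. It was at no more than 7.04e-06 TPM in the other 6 libraries, so it did not enter the fit. The ratio planned for Tsc1 plus Tsc2 over Rheb was therefore in effect that of Tsc1, at 0.114 in control and 0.121 with western diet.

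Of the substrates of mTORC1, Rps6kb1, the S6 kinase, was at 7.41, 7.505, 12.4 and 9.14 TPM in control and 8.20, 8.13, 8.19 and 7.66 TPM with western diet. The western diet libraries agreed closely and the control group was spread by replicate 3 (limma adjusted p = 0.769). Its log2 fold change was -0.13 (SE 0.14), and 0.01 (SE 0.11) without that library. Eif4ebp1, the repressor of cap-dependent translation that mTORC1 inactivates, was at 8.40 ± 2.10 against 7.64 ± 0.873 TPM (limma adjusted p = 0.85). Prkaa2, the catalytic alpha 2 subunit of AMPK, which senses low energy and restrains mTORC1, was at 15.7, 13.4, 20.2 and 18.9 TPM in control and 15.01, 20.05, 21.5 and 17.0 TPM with western diet. These groups overlapped over most of their range (limma adjusted p = 0.823).

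**Figure D3:**
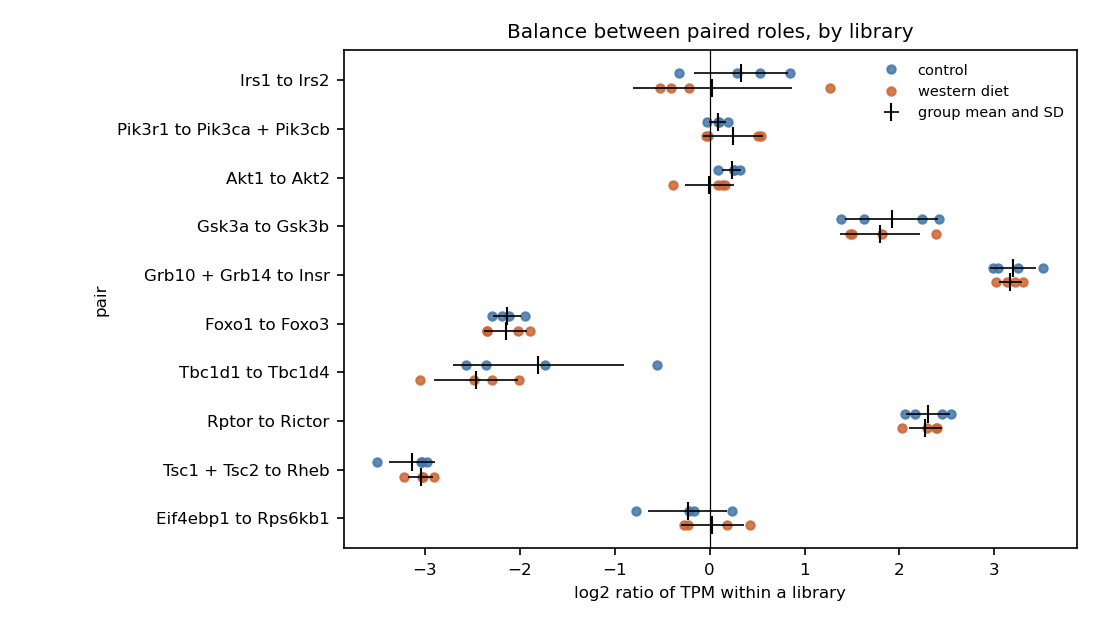
Log2 ratio of TPM within a library on the x axis for 10 pairs of roles; points are libraries, ticks and bars the mean and SD of each group of 4. No pair separates the groups, and the control library at -0.56 for Tbc1d1 to Tbc1d4 is replicate 3.

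None of the 10 ratios between paired roles had a p under 0.05 by a two-sided exact permutation test, neither before adjustment (0 with p under 0.05) nor after it. As no p below 0.0286 was possible, a single ratio could not pass after adjustment over 10. Ratios within a library do not depend on how it was scaled. The widest difference was for Tbc1d1 to Tbc1d4, 0.287 in control and 0.182 with western diet (log2 difference -0.66, exact p = 0.257, adjusted p = 0.914), and it was -0.24 without control replicate 3. Eif4ebp1 to Rps6kb1 stood at 0.853 in control and 1.02 with western diet (exact p = 0.457).

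The members also varied between libraries of the same group. Control replicate 2 had the lowest value of all 8 libraries for 21 of the 32 members, and western diet replicate 2 the highest for 15. The shares of all genes lowest or highest there were not counted, so these counts are not read as particular to the members. The median deviation of the members from their own 8-library mean was -0.25 in control replicate 2 and 0.21 in western diet replicate 2 on the log2 scale, beside -0.15 and 0.13 over all genes tested. Western diet replicates 1 and 2 were the 2 highest libraries for 13 members (40.6%), as they were for 24.0% of all genes. Those 13 were Irs1, Irs2, Pik3r1, Pik3r2, Akt2, Gsk3a, Foxo1, Foxo3, Foxo4, Tbc1d4, Ptpn1, Socs3 and Eif4ebp1. None of the 4 genes of the mTOR complexes was among them. Of the 32 members, 15, 21 and 12 lay above all controls in western diet replicates 1, 2 and 3, and 3 in replicate 4. Over all genes the shares above all controls were 43.1%, 50.01%, 27.0% and 13.3% in replicates 1 to 4. Below all controls lay 3 members (9.38%) in replicate 3 and 5 (15.6%) in replicate 4, against 19.7% and 32.7% of all genes. No member did in replicates 1 and 2, against 10.5% and 9.17% of all genes. Western diet replicate 1 also had the smallest mitochondrially encoded share of TPM, 27.3% against 34.6% to 39.3% in the other libraries. Its part in these values was not tested.

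**Figure D4:**
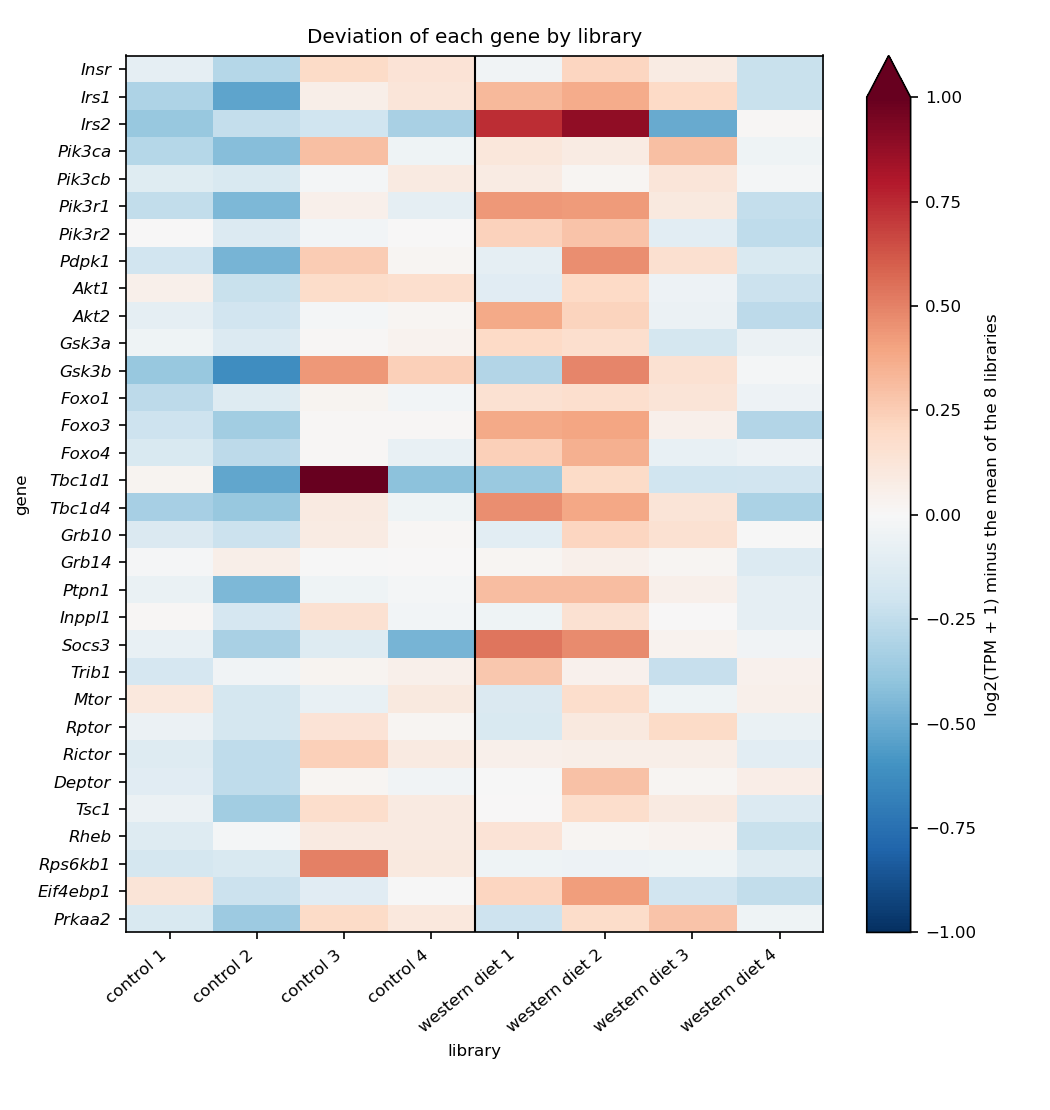
Log2(TPM + 1) minus the mean of the 8 libraries for each tested member (rows) in each library (columns; the line divides control from western diet), with red above and blue below the mean and 1 value beyond the scale. Control replicate 2 is blue for most members, western diet replicate 2 is red for most, and western diet replicate 4 differs from the other western diet libraries.

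Other genes of the pathway, from lists of 43 insulin and PI3-kinase genes and 52 mTOR and AMPK genes, gave similar counts. Of the first list 35 were tested and of the second 45, and none passed a limma adjusted p of 0.05. At an unadjusted p under 0.05 each list had 4 genes, all higher, which is 11.4% and 8.89% against 11.7% of all genes. The medians of the log2 fold change were 0.08 and 0.08. In the first list, Sgk1, a kinase related to AKT and induced by glucocorticoids, was at 15.8, 15.6, 17.2 and 24.3 TPM in control and 36.8, 35.2, 25.1 and 23.6 TPM with western diet. Replicate 4 lay below the highest control (log2 fold change 0.69, SE 0.17, limma adjusted p = 0.14). Ptpn11, which encodes the phosphatase SHP2, was at 58.1 ± 4.81 against 46.6 ± 4.70 TPM (limma adjusted p = 0.228). Inpp5d, which encodes the blood cell phosphatase SHIP1, was at 2.24 ± 0.508 against 1.48 ± 0.330 TPM, and Trib3, a pseudokinase that binds AKT, at 1.80 ± 0.237 against 1.36 ± 0.0964 TPM.

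In the second list, Ddit4, also called REDD1, a stress-induced inhibitor of mTORC1, was at 6.42, 8.21, 6.13 and 11.6 TPM in control and 54.5, 30.5, 7.65 and 8.48 TPM with western diet. Only western diet replicates 1 and 2 were high, the same libraries in which Irs2 was high (log2 fold change 1.14, SE 0.51, limma adjusted p = 0.422). Akt1s1, which encodes the mTORC1 inhibitor PRAS40, was at 22.4 ± 4.94 against 15.96 ± 1.13 TPM (limma adjusted p = 0.238). Slc7a5, an amino acid transporter that feeds mTORC1, was at 2.04 ± 0.336 against 1.38 ± 0.249 TPM, and Nprl3, part of a complex that senses amino acid lack, at 10.1 ± 0.670 against 8.47 ± 0.513 TPM.

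Of 22 genes known to depend on FOXO factors, which include the members Irs2, Insr and Eif4ebp1, 21 were tested and 1 passed over all genes (4.76%, against 0.301% of all genes). This was Pdk4, which restrains glucose oxidation and which fatty-acid-sensing nuclear receptors also induce, at 148 to 359 TPM with western diet and 34.2 to 45.4 TPM in control (limma adjusted p = 0.000561). At an unadjusted p under 0.05 there were 5 (23.8%), all higher, against 11.7% of all genes: Pdk4, Irs2, Cat, Bnip3 and Txnip. The list's median log2 fold change was 0.22, beside 0.06 over all genes. The list was chosen with earlier results of these data known, so its shares describe the list and are not independent support. As a whole it was not refitted under the alternative settings, the Y-linked term among them. Cat, catalase, was at 81.0, 73.9, 73.3 and 78.6 TPM in control and 101, 99.7, 98.9 and 86.8 TPM with western diet. Its groups did not overlap (log2 fold change 0.33, SE 0.08, limma adjusted p = 0.137). Bnip3, a mitophagy receptor, averaged 122 ± 21.0 TPM with western diet and 91.9 ± 8.46 TPM in control (limma adjusted p = 0.231). Txnip, which limits glucose uptake, averaged 182 ± 79.3 TPM with western diet and 106 ± 43.6 TPM in control (limma adjusted p = 0.363). Both atrophy ligases of the list are given here although they fall outside the rule for named genes. Fbxo32 averaged 11.2 ± 1.36 TPM with western diet and 9.26 ± 1.36 TPM in control (limma adjusted p = 0.445), and Trim63 104 ± 16.9 TPM and 104 ± 7.35 TPM (limma adjusted p = 0.971). Trim63, Sod2 and Pik3ip1 were the 3 tested genes of the list with the lower mean log2 value with western diet.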

How the data were processed

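The authors deposited gene-level TPM with Ensembl identifiers and a column for each of 8 libraries; the columns sum to 941318 to 953448. Kallisto, DESeq2 and the build GRCm38 are named in the submitters' processing notes, without versions or roles. Per the labels' protocols, libraries were stranded and made from polyadenylated RNA. TPM keeps no read depth, so no counting error is given, and it is relative: a transcript with a large share lowers all others.

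GENCODE vM21 (GRCm38) named 29732 of 30153 identifiers. The test was limma (version 3.58.1, R 4.3.3) on log2 values of TPM plus a pseudocount of 1, for the 10969 genes that reached 1 TPM in 4 or more libraries (group as the only term, intensity trend, two-sided, Benjamini-Hochberg over all genes tested). No count test was used, since TPM is not counts. Ratios within a library were compared by exact permutation over 70 assignments. The fit was tested on simulated data. Figures were drawn with matplotlib 3.10.9 in Python 3.11.15.

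Members, lists and tests were chosen with earlier results of these data known. Replicate numbers follow accession order and pair no samples. Values are given in each library for members with an unadjusted p under 0.05, groups that do not overlap or the highest level of their role. Irs1, Akt2, Foxo4, Tbc1d1, Tbc1d4 and Ptpn1 were added after their values were seen. So were the marker genes Adipoq, Cfd, Ucp1, Cidea, Elovl3, Fabp4, Kap, Acta2 and Tagln, as well as Prkaa1 and genes named as listed at 0. From each list, genes past an adjusted p of 0.05 and up to 4 of smallest unadjusted p under 0.05 are named. Alternatives were pseudocounts of 0.5 and 0.1, omission of the filter, a filter on the mean (5 TPM), 3 other scalings, no intensity trend, library weights, a Y-linked term (libraries where Eif2s3y reached 1 TPM), those libraries alone, removal of libraries with atrial RNA (where Myl7 reached 100 TPM) and leaving out each library. The filter was applied anew to the libraries in each fit.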

Additional observations from a re-analysis of the deposited data

Results flagged for a closer look

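In 7 of 84 groups of 4 libraries examined (32 members and 10 ratios, each in both groups) 1 library lay far from the other 3, with a gap to its nearest neighbour beyond Dixon's 95% limit for 4 values. Chance flags about 1 in 20 groups. Tbc1d1 was at 15.6 TPM in control replicate 3, the other controls reaching at most 5.10 TPM. Control replicate 2 stood apart for Grb14 (121.6 TPM, highest), Ptpn1 (3.55 TPM, lowest) and the log2 ratio of Tsc1 plus Tsc2 to Rheb (-3.50, lowest). Western diet replicate 4 stood apart for Rictor (1.28 TPM) and Rps6kb1 (7.66 TPM), the lowest of its group for both. The log2 ratio of Akt1 to Akt2 was -0.39 in western diet replicate 1, the lowest of its group.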

How the results depend on the processing

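No member passed an adjusted p of 0.05 under any of the 20 alternatives. None of the 10 ratios did under the 10 alternatives run for them, but that outcome was largely fixed in advance. With all libraries the exact permutation test allows no p below 0.0286, so a single ratio could not pass after adjustment over 10. Fewer libraries allow fewer assignments, and no smaller p was possible in those fits. The count of members at an unadjusted p under 0.05 was 3 as reported, beside 11.7% of all genes. It was 1 without a filter, with a mean of at least 5 TPM and without the libraries with atrial transcripts. In those fits 8.99%, 11.6% and 5.48% of all genes had such a p. The count was 6 with mitochondrially encoded genes removed (13.2% of all genes), 9 with library weights (17.3%) and 0 with the Y-linked term (8.32%). With each library left out it was 1 to 10 (7.78% to 16.4% of all genes). Over all genes the 33 became 5 without a filter, 15 with a mean of at least 5 TPM, 61 by quantile normalization, 108 with library weights, 54 with the Y-linked term, 2 without the libraries with atrial transcripts, 81 with only the libraries with Y-linked transcripts, and 9 to 90 with each library left out. With fewer libraries or more genes tested the threshold also moves; otherwise the cause was not tested. Pik3r1 went to -0.055 with the Y-linked term and with only those libraries. With that term the sign changed for 14 of 32 members, Pik3r1 among them. In the fit of the 5 libraries with Y-linked transcripts, western diet is 1 library, assumed to vary like the controls. No paired analysis was possible because the labels give no replicate numbers shared by the groups. Read depth is unknown, so no limit for low genes can be given.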

Other observations

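Of the other pathway genes looked at, Cbl, an adaptor and ubiquitin ligase, Sh2b2, an adaptor of the insulin receptor, and Sesn3, a FOXO-induced regulator of mTORC1, were listed at 0 in all 8 libraries. Prkaa1, the alpha 1 catalytic subunit of AMPK, was too low to be tested. It was at 1.11, 2.37 and 1.04 TPM in western diet replicates 1, 2 and 3, the libraries without Y-linked transcripts. In western diet replicate 4 and the 4 controls it was at no more than 0.000306 TPM. Whether the values at or near 0 of these genes reflect absent RNA or how the deposited values were made was not tested.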
